A study of Arabidopsis thaliana with 4 samples.

Results

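Loci gaining methylation in all contexts were stretches of the Arabidopsis nuclear chromosomes at which regions of higher methylation in ndx1-4 were listed for CG, CHG and CHH together (H stands for any base but G). The listed regions of any context that shared at least 1 bp were chained into a locus, and a locus was kept when it held all 3 contexts and when the ndx1-4 level was above the Col-0 level in each of its regions. The rule kept 338 regions in 108 loci, out of 6787 regions in 5943 loci on the 5 nuclear chromosomes and 7023 listed regions in all. Genomic DNA from seedlings aged 14 days of the wild-type accession Col-0 and of ndx1-4, a mutant of NODULIN HOMEOBOX (NDX), had been sequenced after bisulfite treatment, which leaves methylated cytosines as cytosine and turns unmethylated ones into thymine. Each genotype was represented by 2 libraries, and no further allele or treatment was named for either group. Methylation levels were fractions from 0 to 1, with a single value per genotype and region in which both libraries were combined. Where one of the 108 loci held several regions of a context, their mean weighted by region length is given. Loci of repeat copies outside the 108 are given by the plain mean. Neither a spread between libraries nor a read depth could therefore be set beside any level. The members were selected on these levels, so the levels and their direction are given as a description with no test.

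The 3 contexts are maintained by different enzymes in Arabidopsis. CG methylation is copied after replication by MET1 with the help of VIM proteins, CHG methylation is maintained by CMT3 together with histone H3 lysine 9 methylation, and CHH methylation is set by DRM2, which small RNAs guide in the RNA-directed DNA methylation pathway, and by CMT2. Methylation of all contexts is typical of transposons and other repeats, whereas genes that carry methylation in their bodies usually carry it in CG alone, and ROS1 and its relatives remove methylated cytosines at many places near genes.

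The sequences below carry the loci with the strongest listed changes, as ranked by the summed absolute area statistic of their regions. They are 200 bases of the forward strand of the RefSeq TAIR10.1 assembly, centred between the first and the last base that regions of all 3 contexts shared, with CG dinucleotides in capitals. The first lay on chr3:15500840-15501039 upstream of AT3G43580, the second on chr5:9708263-9708462 in the pseudogene AT5G27500 and the last (rank 5, since the windows of the loci between touched untranslated exons) on chr5:20076440-20076639 beyond the 3′ end of AGL83, a gene for a MADS-box transcription factor.
AT3G43580 upstream locus: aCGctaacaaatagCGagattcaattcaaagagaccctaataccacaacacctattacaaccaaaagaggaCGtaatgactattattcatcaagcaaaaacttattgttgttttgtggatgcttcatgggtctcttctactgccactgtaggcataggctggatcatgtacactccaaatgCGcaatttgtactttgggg
AT5G27500 pseudogene locus: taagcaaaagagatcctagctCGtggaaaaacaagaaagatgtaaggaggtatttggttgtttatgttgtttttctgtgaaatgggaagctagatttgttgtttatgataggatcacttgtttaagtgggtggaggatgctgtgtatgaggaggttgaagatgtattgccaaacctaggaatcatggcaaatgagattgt
AGL83 locus: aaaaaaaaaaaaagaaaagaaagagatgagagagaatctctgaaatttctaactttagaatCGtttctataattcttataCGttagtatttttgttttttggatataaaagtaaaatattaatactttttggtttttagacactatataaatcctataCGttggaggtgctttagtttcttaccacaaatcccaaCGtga
Most of the first window lay within the CG and CHH regions but between the CHG regions of the locus, which ended at 15500778 and began again at 15500979, whereas regions of each context covered the other windows up to their ends. The windows held 4, 1 and 4 CG dinucleotides, respectively, and 66, 70 and 42 CHH cytosines over both strands. Their GC content was 40.0%, 38.0% and 26.0%.

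A second set is shown because 4 of the 108 loci carried the same repeated stretch, which is described further below. The copies lay on chr2:10045096-10045317 (reverse strand) in an intron of MES3, a methyl esterase gene, on chr4:6877403-6877630, on chr5:6789412-6789646 and on chr5:20076379-20076613 beside AGL83. Capitals mark the bases that were identical in all 8 aligned copies that lay in listed loci.
Copy C, MES3 intron: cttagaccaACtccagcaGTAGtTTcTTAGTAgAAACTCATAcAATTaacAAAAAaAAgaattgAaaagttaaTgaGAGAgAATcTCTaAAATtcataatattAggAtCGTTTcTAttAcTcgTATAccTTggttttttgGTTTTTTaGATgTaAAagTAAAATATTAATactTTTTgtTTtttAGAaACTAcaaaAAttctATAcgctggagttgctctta
Copy E, chromosome 4: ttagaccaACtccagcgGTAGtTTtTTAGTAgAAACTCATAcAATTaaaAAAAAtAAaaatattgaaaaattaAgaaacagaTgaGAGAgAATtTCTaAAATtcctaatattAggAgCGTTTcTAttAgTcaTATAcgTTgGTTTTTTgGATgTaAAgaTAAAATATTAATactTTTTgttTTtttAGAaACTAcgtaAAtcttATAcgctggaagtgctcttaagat
Copy G, chromosome 5: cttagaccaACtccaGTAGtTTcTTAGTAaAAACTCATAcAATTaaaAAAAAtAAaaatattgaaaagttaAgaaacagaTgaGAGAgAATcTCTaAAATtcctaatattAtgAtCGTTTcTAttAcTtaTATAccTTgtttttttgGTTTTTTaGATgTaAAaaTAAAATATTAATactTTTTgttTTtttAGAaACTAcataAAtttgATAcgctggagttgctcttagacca
Copy H, AGL83: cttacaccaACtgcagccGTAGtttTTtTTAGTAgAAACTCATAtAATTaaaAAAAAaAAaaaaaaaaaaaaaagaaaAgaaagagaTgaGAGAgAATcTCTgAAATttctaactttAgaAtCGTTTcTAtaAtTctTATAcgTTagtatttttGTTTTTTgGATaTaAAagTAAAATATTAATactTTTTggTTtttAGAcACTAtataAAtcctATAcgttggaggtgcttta
In each copy 110 bases were capitals, out of 222, 228, 235 and 235 bases. The copies were poor in CG dinucleotides, with 3, 5, 2 and 4 of them, and their GC content ranged from 24.3% in copies G and H to 27.0% in copy C.

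CG methylation was the highest of the contexts at these loci. The median over the 108 CG regions was 0.0954 for Col-0 (95% interval of the median 0.0774 to 0.141, range 0.0132 to 0.563) and 0.697 for ndx1-4 (0.643 to 0.751, range 0.175 to 0.910), with a median difference of 0.513. Among all CG regions listed on the nuclear chromosomes, 56.3% were higher in ndx1-4, a share that was used by the rule and from which nothing is read here. The CG level of Col-0 was under 0.1 at 56 loci and under 0.2 at 78, whereas 5 loci started from 0.5 or more. In ndx1-4 it reached 0.5 or more at 92 loci and 0.8 or more at 24. Loci with a higher Col-0 CG level had a smaller CG difference (Pearson r = -0.49, Spearman rho = -0.49 across 108 loci), a relation in which the Col-0 level is part of both quantities.

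CHG methylation rose from a low level as well. The median over the 116 CHG regions was 0.0298 for Col-0 (range 0.00480 to 0.544) and 0.384 for ndx1-4 (range 0.126 to 0.757), and the median difference was 0.315. Of all listed CHG regions, 35.4% were higher in ndx1-4. The loci held 44.1% of the 263 gaining CHG regions, 6.70% of the 1613 gaining CG regions and 8.56% of the 1332 gaining CHH regions. The rule required a region of each context in each locus, so these shares restate how many regions of each context were listed as gaining.

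CHH methylation had the smallest levels. The median over the 114 CHH regions was 0.0171 for Col-0 (range 0.00770 to 0.146) and 0.131 for ndx1-4 (range 0.0449 to 0.324), with a median difference of 0.0999, beside 41.9% of all listed CHH regions that were higher in ndx1-4. The ndx1-4 CHH level was 0.1 or more at 73 loci and 0.2 or more at 13. At 41 loci Col-0 was low in every context at once, with levels under 0.1 in CG, 0.05 in CHG and 0.02 in CHH.

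**Figure D1:**
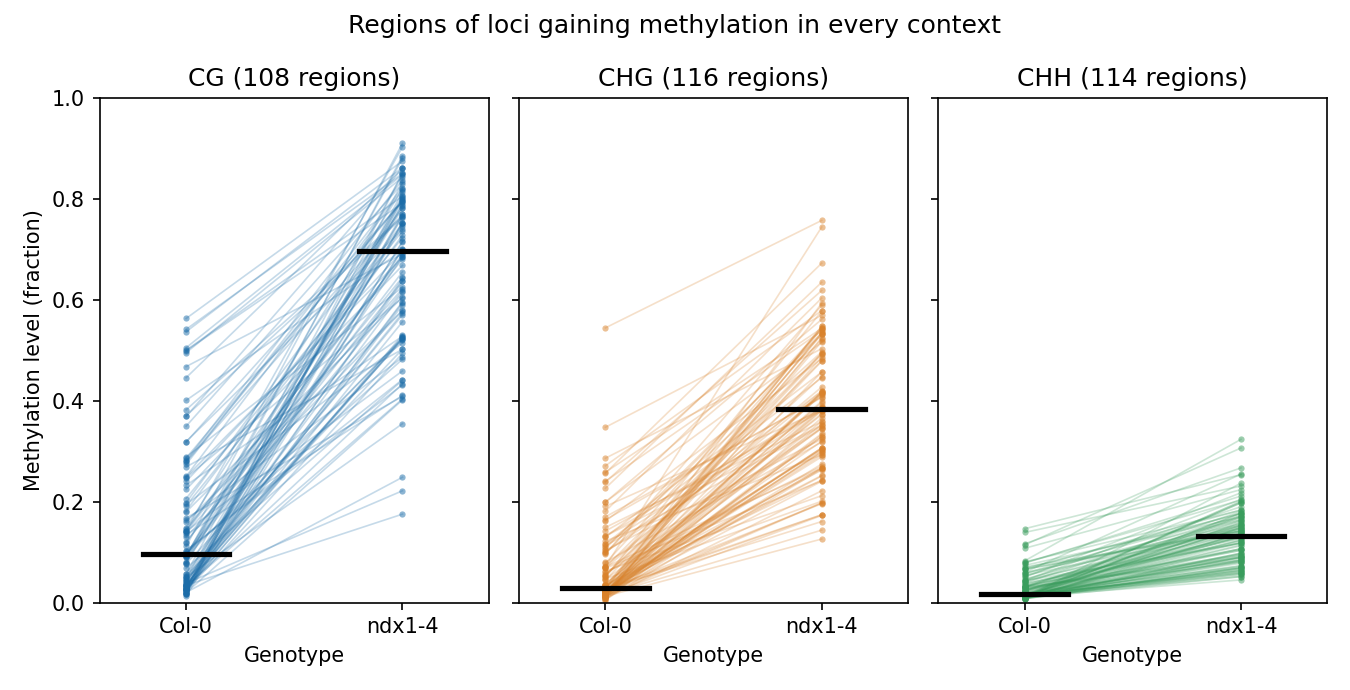
Methylation level (fraction, vertical axis) of the 108 CG, 116 CHG and 114 CHH regions in Col-0 and ndx1-4, with 1 line per region and black bars at the medians. The medians move from 0.0954 to 0.697 in CG, from 0.0298 to 0.384 in CHG and from 0.0171 to 0.131 in CHH, and each line rises because the regions were selected for that direction.

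The regions that gained methylation outside these loci gave a picture of the same measure elsewhere. The 1505 other gaining CG regions had medians of 0.134 in Col-0 and 0.612 in ndx1-4, the 147 other CHG regions 0.0529 and 0.304, and the 1218 other CHH regions 0.0667 and 0.154. The regions of the all-context loci were longer than these, with median lengths of 231 bp against 105 bp in CG, 142.5 bp against 93.0 bp in CHG and 261.5 bp against 153.5 bp in CHH. The rule asked for overlaps between contexts, so these lengths were not independent of the selection. The 63 loci at which every region was lower in ndx1-4 formed the opposite class, and 3 further loci held regions of both directions, so that 62.1% of the 174 loci with all 3 contexts gained in every region, compared with 45.3% of the 5943 nuclear loci of any kind. In the losing loci the medians of Col-0 and ndx1-4 were 0.718 and 0.0592 for CG, 0.334 and 0.0228 for CHG, and 0.0958 and 0.0155 for CHH. Taking CHH, CHG and CG in turn, the median lengths of the losing regions were 247, 199 and 229.5 bp. These also exceeded the lengths of the other gaining regions, so greater length was not particular to the loci that gained.

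The order of the contexts was nearly the same at each locus. The ndx1-4 level fell from CG over CHG to CHH at 104 of the 108 loci, and the difference between the genotypes did so at 94. At the other 14 loci the CHG difference was above the CG difference, and at 0 loci was the CHH difference above the CHG difference. The CHG level of ndx1-4 was a median of 57.8% of the CG level of the same locus (95% interval 55.1 to 62.7%, range 23.3 to 188%), and the CHH level was 19.9% of the CG level (17.3 to 21.6%). In the losing loci, whose methylated genotype is Col-0, the corresponding shares were 51.1% (46.1 to 58.6%) and 15.5% (12.2 to 17.6%). The intervals overlapped between the classes for both shares, by little for CHH.

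Across the 108 loci the ndx1-4 CG and CHG levels were moderately related (r = 0.48, rho = 0.51), as were the CHG and CHH levels (r = 0.46, rho = 0.42). The CG and CHH levels were hardly related (r = 0.13, rho = 0.12). The levels of a locus come from the same libraries and from regions chained by overlap, although each cytosine belongs to a single context. They are described without a test.

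**Figure D2:**
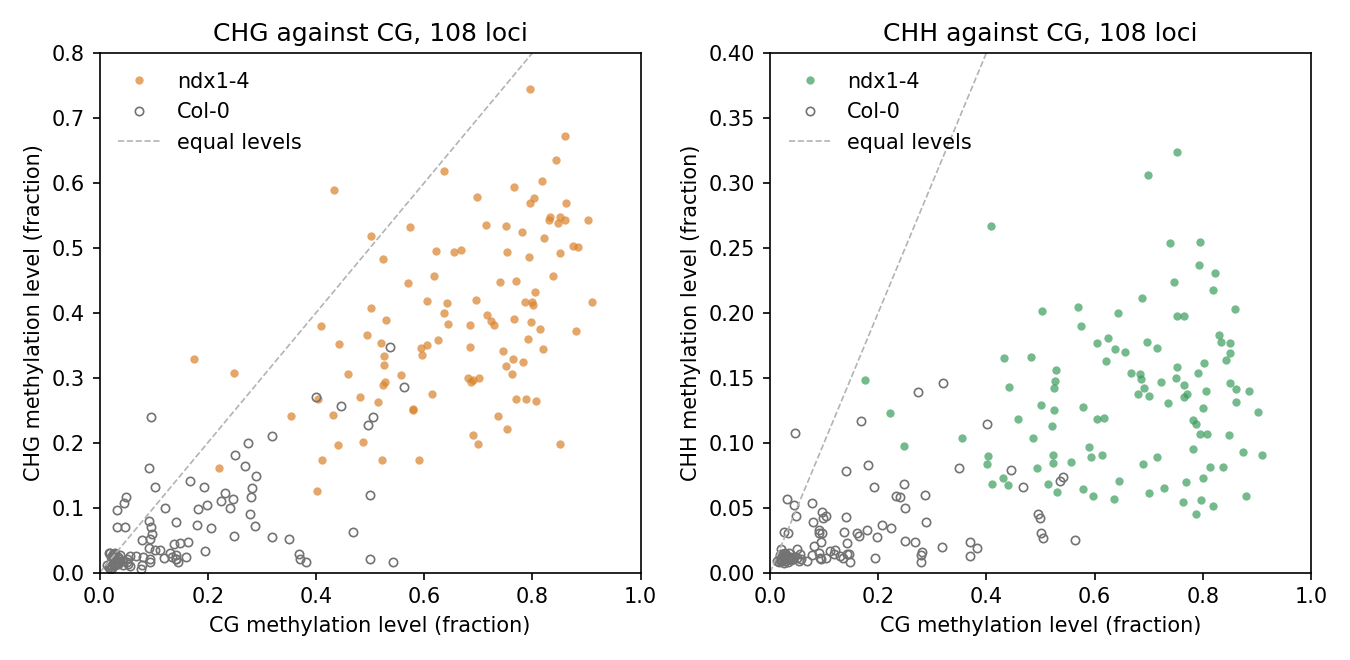
CHG level (left) and CHH level (right) against CG level of the same locus, as fractions, for ndx1-4 (filled) and Col-0 (open) at the 108 loci, with a dashed line at equal levels. The ndx1-4 level falls from CG over CHG to CHH at 104 loci, and the points rise with CG for CHG (r = 0.48) but hardly for CHH (r = 0.13).

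The loci were short. Their median length was 340.5 bp (95% interval 312 to 385 bp, range 134 to 1257 bp), and together they covered 45.0 kb. Most of them, 95, consisted of 1 region per context, while 12 held 4 regions and 1 held 5. More than 1 CHG region was present at 8 loci, more than 1 CHH region at 6 and more than 1 CG region at 0. The CHH regions spanned a median of 274 bp, the CG regions 231 bp and the CHG regions 150 bp, and the CHH span was the longest of the locus at 61 loci, the CG span at 35 and the CHG span at 12. CHH regions reached beyond the CG region on both sides at 37 loci and on 1 side at 50, and they stayed within its limits at 21. A stretch covered by regions of all 3 contexts existed at 97 loci, and its median length over all 108 loci was 92.0 bp. At the other 11 loci the regions were chained without a base common to all contexts, as at the MES3 locus.

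**Figure D3:**
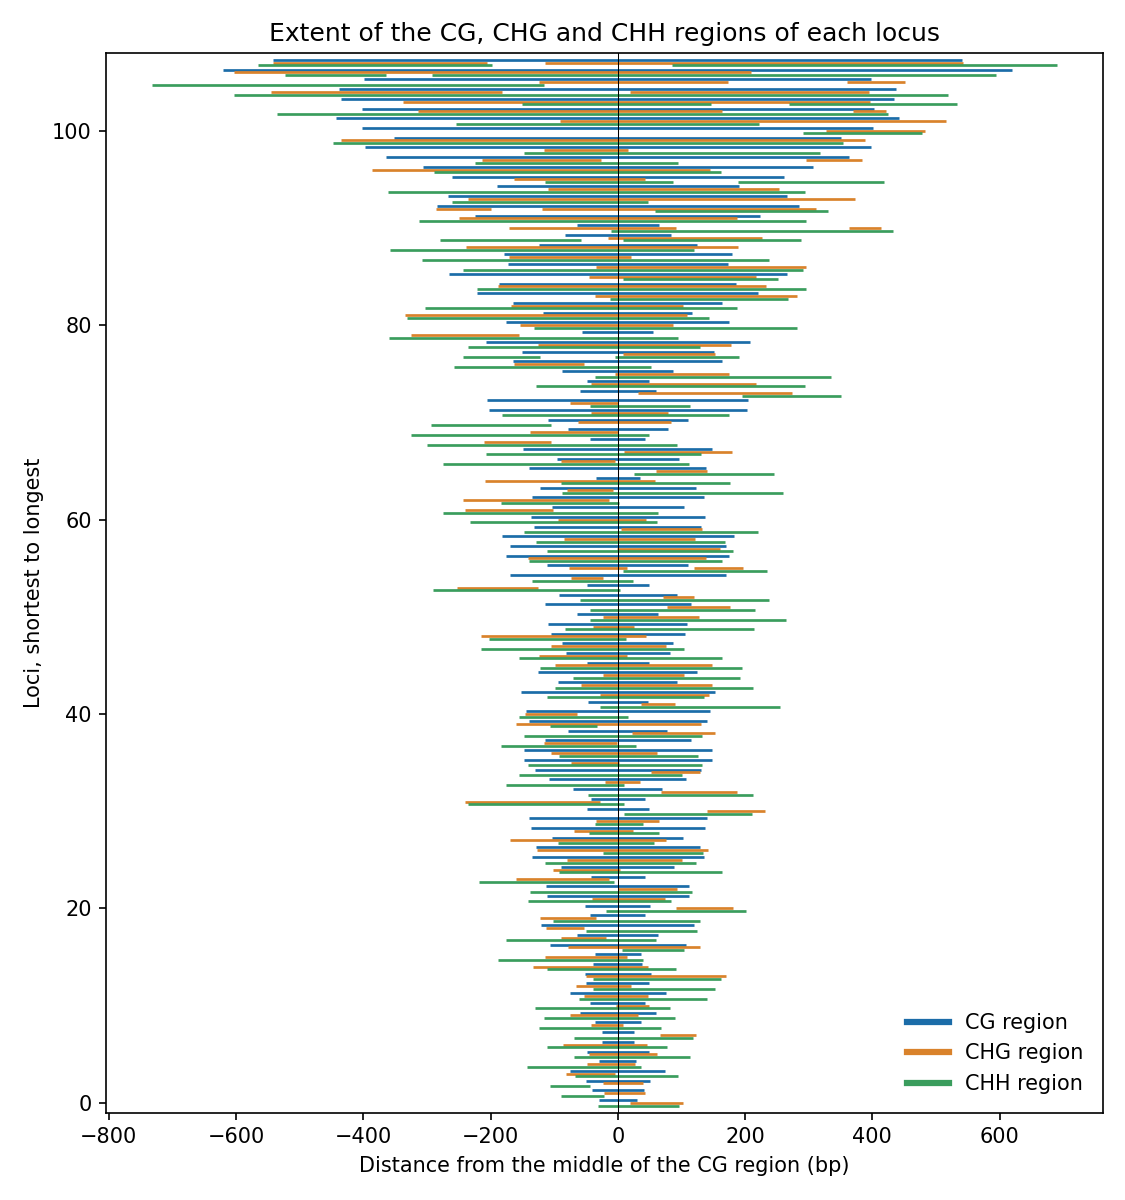
Extent of the CG, CHG and CHH regions of each locus, drawn as bars from the middle of the CG region (horizontal axis, bp) with 1 row per locus from the shortest (134 bp) to the longest (1257 bp). The CHH bars are the longest of their row at 61 loci and extend past both ends of the CG bar at 37.

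The members nearest to the limits of the rule were as follows. The smallest CG difference was 0.141, from 0.0343 to 0.175 at chr3:9292234-9292319, the smallest CHG difference was 0.114, from 0.0124 to 0.126 at chr2:7417832-7417889, and the smallest CHH difference was 0.0333, from 0.0116 to 0.0449 at chr5:12675711-12675862. The weakest chains were overlaps of 6, 7 and 20 bp, and 3 loci depended on an overlap of under 25 bp. Outside the rule, 267 loci gained in 2 contexts, and 0 of them had a region of the missing context within 100 bp. Of the 3 loci with both directions, the one on chr2:4507466-4508627 held a CHH region at its end that was higher in ndx1-4 (0.0623 and 0.168), while its other regions were lower, among them the CG region (0.788 and 0.1002). Another, on chromosome 4, held a CHH region with 0.133 and 0.243 and a CG region with 0.766 and 0.384.

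The loci ranked highest were long and reached high CG levels in ndx1-4. At the first, on chr3:15500357-15501479, 537 bp upstream of AT3G43580, a gene annotated as related to beta-galactosidase, CG methylation was 0.0810 in Col-0 and 0.885 in ndx1-4, CHG methylation 0.0233 and 0.501, and CHH methylation 0.0207 and 0.140. This locus lay in pericentromeric DNA. The second, on chr5:9707899-9709139, overlapped the pseudogene AT5G27500 over 1004 bp and had the highest ndx1-4 CG level of all 108 loci, 0.910 against 0.111 in Col-0. Losing loci were listed on either side of it, one of them 100 bp away.

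The third locus, on chr2:11648885-11649845, covered the start of AT2G27229, a pentatricopeptide repeat gene, and ended 513 bp before LHW, a gene for a transcription factor of vascular development. Here CG methylation went from 0.0285 to 0.753, CHG methylation from 0.0307 to 0.494 and CHH methylation from 0.0132 to 0.198. The fourth locus, on chr1:19962968-19964224, was the longest and held 5 regions. It overlapped 474 bp of the coding sequence of MRD1, an antisense RNA gene (AT1G07887) and the start of HEI10, a gene needed for meiotic crossovers, with levels of 0.0568 and 0.851 in CG, 0.0253 and 0.492 in CHG and 0.0107 and 0.146 in CHH. In its CG region 65 of 98 cytosines were counted, so the level covers only part of the region. The median over all member CG regions was 100%.

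Of the next loci in rank, the AGL83 locus on chr5:20076138-20076792 overlapped the last 48 bp of the coding sequence and rose from 0.0237 to 0.643 in CG, from 0.0150 to 0.416 in CHG and from 0.0141 to 0.1996 in CHH. The sixth overlapped AT3G43970, a gene for an uncharacterized protein, in pericentromeric DNA of chromosome 3 (CG 0.0384 and 0.7998). The seventh lay in the transcribed pseudogene AT2G16110 (CG 0.142 and 0.903) and had the highest GC content of the 108 loci, 46.7%. The eighth, on chr1:13603957-13605141, and the ninth, on chr4:6281574-6282266, were in no gene record and showed CG levels of 0.766 and 0.880 in ndx1-4 against 0.0782 and 0.0914 in Col-0. In the CG regions of the seventh and eighth loci, 24 of 36 and 22 of 31 cytosines were counted.

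The largest difference of each context fell at different loci. The largest CG difference, 0.833, was at chr1:612300-612539, which covered the start of PGA4, a gene for a pectin-degrading polygalacturonase, where Col-0 was at 0.0170 in CG, 0.00880 in CHG and 0.0102 in CHH and ndx1-4 at 0.850, 0.548 and 0.177. The locus in AT3G09960, a phosphoesterase gene, had the second-largest CG difference, 0.806, over 331 bp. The largest CHG difference, 0.673, was at chr3:17978209-17978755, 1435 bp upstream of CYP94B3, an enzyme gene of jasmonate turnover, where the CHG level rose from 0.0713 to 0.744 and came close to the CG level of 0.795. At a locus 1348 bp upstream of MPK3, a kinase of immune signalling, CHG rose by 0.577 and CG by 0.384. At the locus 134 bp downstream of UGT71B8, a glycosyltransferase gene, the CHG level of ndx1-4 (0.518) was slightly above the CG level (0.502). The largest CHH difference, 0.241, was at chr1:10363097-10363408 in the pseudogene AT1G29650, where CHH methylation rose from 0.0826 to 0.324, followed by 0.228 at the transcribed pseudogene AT3G26775, 178 bp upstream of MEF14, an editing factor gene of mitochondria.

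The Col-0 CG level covered a wide range, with quartiles of 0.0345 and 0.234. The lowest levels were 0.0132 at a locus 156 bp upstream of AFH14, a formin gene of actin assembly, 0.0170 at PGA4 and 0.0175 at a locus 495 bp upstream of the microRNA gene MIR869. In ndx1-4 these stood at 0.702, 0.850 and 0.753. The highest Col-0 levels were 0.563 at a locus 1652 bp upstream of ABCG11, a transporter gene of cuticle formation, 0.542 at AT1G61320 and 0.537 on chr2:1905293-1905426, and the ndx1-4 levels there were 0.875, 0.850 and 0.862. At AT1G61320, a gene with a leucine-rich repeat domain, the Col-0 CHG level was 0.0170 in spite of the CG level of 0.542, and it reached 0.198 in ndx1-4.

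Loci that overlapped named protein-coding genes took various positions within them. The locus at AGL21, which encodes another MADS-box factor, covered 278 bp of coding sequence and 362 bp of introns and rose from 0.0934 to 0.787 in CG and from 0.0216 to 0.416 in CHG. The MES3 locus lay wholly in an intron and was one of the weakest in CG, from 0.0202 to 0.248, where CHG rose further, from 0.0239 to 0.307. At EXT13, an extensin gene of the cell wall, the locus covered 29 bp of coding sequence and 257 bp of untranslated exon, and its CG region (0.0247 and 0.530), on chr5:13435385-13435542, reached across the gene end at 13435424. At COBL5 (CG 0.249 and 0.684) and XBAT34 (0.247 and 0.604) the locus overlapped untranslated exon only, and at CYP81D1 (0.192 and 0.723) it covered the gene start.

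By position, most of the loci lay on the chromosome arms, and many lay close to genes, as did the 162 loci that gained in CG and CHH without a CHG region. In pericentromeric DNA lay 13 of the 108 (12.04%, 95% Wilson interval 7.17 to 19.5%), against 11.1% of the loci gaining in CG and CHH only (7.15 to 16.9%), 17 of the 63 losing loci (27.0%, 17.6 to 39.0%) and 35.2% of all nuclear loci, where this compartment made up 17.7% of the chromosomes. Intervals of shares cover counting only, because listed loci are not independent samples. A longer locus meets a feature more readily, and the classes differed in length. Median lengths were 340.5 bp for the 108, 240 bp for the loci gaining in CG and CHH only, 356 bp for the losing loci and 121 bp for all loci. Neither these shares nor the distances to gene starts given below were adjusted for length. The numbers per chromosome were 32, 16, 22, 11 and 27 for chromosomes 1 to 5. The 1 kb upstream of a protein-coding gene was overlapped by 54 loci (50%, 40.7 to 59.3%), beside 42.0% of the loci gaining in CG and CHH only (34.6 to 49.7%), 33.3% of the losing loci (22.9 to 45.6%) and 23.0% of all loci. A protein-coding gene itself was overlapped by 27 (25%), beside 21.0%, 15.9% and 33.0%, respectively. Genes for noncoding RNAs were overlapped by 11 loci (10.2%, 5.78 to 17.3%), beside 1.85%, 9.52% and 2.83%, and pseudogenes by 10 (9.26%, 5.11 to 16.2%), beside 2.47%, 14.3% and 14.1%. Coding sequence was overlapped by 18 loci (16.7%, 10.8 to 24.8%) and by 6.17% of the loci gaining in CG and CHH only (3.39 to 11.0%). It was overlapped by 14.3% of the losing loci, 24% of the loci gaining in CG and CHG only and 25.9% of all loci. The share of the 108 was thus above that of the CG and CHH class but below that of all loci. Of the 50 loci gaining in CG and CHG only, 26% were pericentromeric and 32% overlapped the 1 kb upstream of a gene. Both shares were nearer to those of the losing loci than to those of the 108, so not every gaining class had these positions. Their other shares were 30% for protein-coding genes, 12% for noncoding RNA genes and 6% for pseudogenes.

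When each locus was given 1 category in a fixed order, 18 fell in coding sequence, 7 in untranslated exons, 2 in introns, 9 in pseudogenes, 10 in noncoding RNA genes, 32 upstream and 9 downstream of a protein-coding gene, and 21 in none of these. The ndx1-4 levels differed little between loci inside and outside protein-coding genes, with CG medians of 0.684 at 27 loci and 0.7 at the 81 others and CHH medians of 0.127 and 0.135. The Col-0 medians were lower inside genes, with 0.0558 against 0.103 in CG, 0.0245 against 0.0445 in CHG and 0.0125 against 0.0237 in CHH. Pericentromeric loci had a median ndx1-4 CG level of 0.766, compared with 0.691 on the arms.

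**Figure D4:**
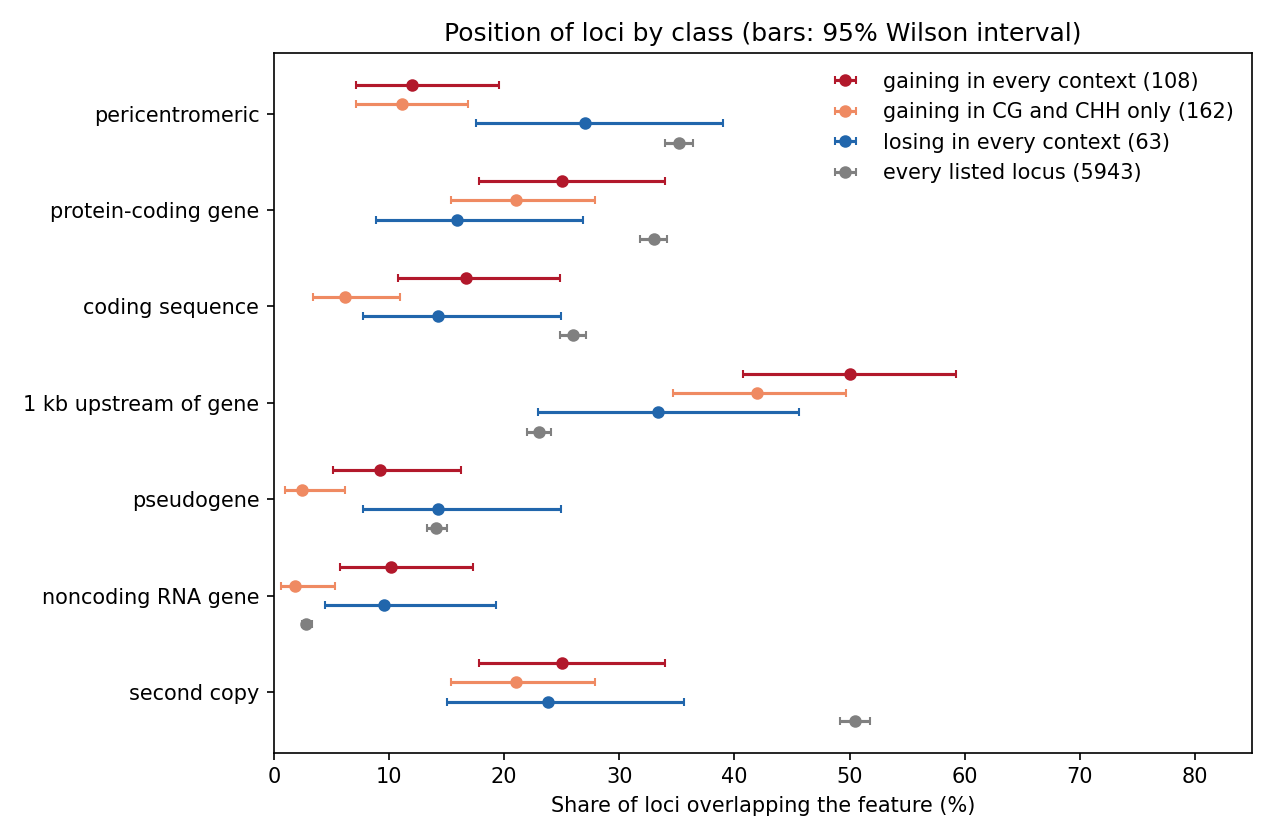
Share of loci (%, horizontal axis) that overlapped each kind of feature, for the 108 loci gaining in every context, the 162 gaining in CG and CHH only, the 63 losing in every context and all 5943 listed loci, with 95% Wilson intervals as bars. Both gaining classes drawn lie below all loci for pericentromeric DNA (12.04% and 11.1% against 35.2%). They lie above all loci for the 1 kb upstream of genes (50% and 42.0% against 23.0%). Loci gaining in CG and CHG only are not drawn, and their shares for these features were 26% and 32%.

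Gene starts were near. The median distance to the closest start of a protein-coding gene was 741 bp for the 108 loci, 1014.5 bp for the loci gaining in CG and CHH only, 1459 bp for the losing loci and 1702 bp for all loci. A start lay inside the locus or within 500 bp of it at 41 loci (38.0%), compared with 27.8% of the loci gaining in CG and CHH only, 14 of the losing loci (22.2%) and 17.0% of all loci. At 7 of the 41 the locus covered the start, at 28 it lay before it and at 6 behind it. Some of these genes were singled out after their values had been seen. A locus on chr5:15840943-15841385 ended 265 bp before VIM3, a member of the VIM family that takes part in CG maintenance, and rose from 0.25 to 0.818 in CG, from 0.181 to 0.603 in CHG and from 0.0501 to 0.218 in CHH. A locus 472 bp before ATHB-15, a homeodomain gene of vascular patterning, had the second-highest CHH level of ndx1-4, 0.306, over a Col-0 level of 0.114. Whether expression of any of these genes differed was not measured in these libraries.

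Lists of genes were checked for a gaining locus within 2 kb. None of 22 genes of the DNA methylation and small RNA machinery, 0 of 5 genes of demethylation and its feedback and 0 of 5 genes of NDX and its partners had one, although 6, 3 and 1 of them had some listed locus within that distance. Of 10 genes with known epialleles, 3 had some listed locus within 2 kb. MRD1 had a locus gaining in all contexts, SDC one gaining in CHH and HISN6B, a gene of histidine synthesis, one losing in all contexts. In all, 167 of 27444 protein-coding genes (0.609%) lay in or within 2 kb of the 108 loci and 21.3% within 2 kb of any listed locus, and nothing is read from counts of 0 in lists of this size. Of the 108, 6 loci were more than 2 kb from any gene record.

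The median GC content of the loci was 31.5% (95% interval 30.6 to 33.0%, range 21.1 to 46.7%), compared with 29.2% (28.2 to 29.8%) for the loci gaining in CG and CHH only, 34.8% (33.0 to 36.4%) for the losing loci, 36.8% for all loci and 36.0% for the nuclear chromosomes. Of the CHG cytosines in the member regions, 39.0% were CAG, 39.5% CTG and 21.6% CCG, beside 40.6%, 41.3% and 18.2% over all listed CHG regions. CAA was the most frequent CHH trinucleotide, with 19.7% of the CHH cytosines in members and 17.8% in all CHH regions.

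Few of the loci were repeated many times. A second copy in the genome, defined as a match of at least 80% identity over at least 50% of the locus, was found for 27 loci (25%, 17.8 to 33.9%), beside 21.0% of the loci gaining in CG and CHH only, 23.8% of the losing loci and 50.5% of all loci. At 90% identity over 80% of the locus the share fell to 5.56%. For 12 of the 27 there was 1 further copy, for 14 there were 2 to 9, and 1 locus, on chr1:2335105-2335407, had 40. The share with 10 or more copies was 0.926% of the 108 and 17.8% of all loci. It was 2.47% of the loci gaining in CG and CHH only and 0% of the losing loci. An identity of 98% or more to the nearest copy occurred at 1 locus. An inverted repeat of 50 bp or more lay inside 1 locus (0.926%) and a direct repeat in 0, beside 0.168% and 0.488% of all loci. Nothing is read from counts this small.

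The copies were often listed themselves. Among loci with 1 to 9 copies, 29 of the 60 copies of the gaining loci overlapped a listed locus (48.3%), compared with 29.0% of 93 copies of the loci gaining in CG and CHH only, 6 of the 21 copies of the losing loci (28.6%) and 9.21% of 5546 copies over all loci. Of the 29, 9 were in others of the 108 loci, whose direction was set by the rule. The other 20 were matches to 12 distinct loci, and each of these 12 gained methylation. The loci gaining in CG and CHH only had 27 listed copies, of which 26 were in gaining loci and 1 in a losing locus. The copies of the losing loci included 5 in losing loci and 1 in a gaining locus, and those of all loci 319 in gaining and 189 in losing loci. Loci of 1 repeat group count each other as copies, so these numbers are not independent. In the repeat shown above, 6 of 7 copies of the MES3 locus were listed. So were 6 of 6 for the locus of copy E and 5 of 5 for that of copy G. These matches made up most of the 29, so the share of 48.3% rests largely on this repeat and is not read as a trait of the 108 loci. At 9 of the 27 loci every copy was listed, at 5 some were, and at 13 none was. How reads of similar copies were assigned by the aligner was not tested.

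The largest such group was the stretch of 205 to 237 bp shown above. It was searched in the whole genome after the sequences and levels had been seen. Full-length matches, covering at least 80% of a copy, were found at 10 places, of which 8 lay in listed loci. Of the 8, 4 were loci with all contexts, which gained by the rule. The other 4, with CG and CHH, CHG and CHH or CHH regions, were gaining loci too, a number too small to set beside the share over all loci. The 2 full matches that were not listed, on chr2:9983450-9983709 and chr3:1408191-1408435, were the least similar ones, with best identities of 69.8% and 72.4%, whereas the listed ones ranged from 83.8% to 90.5%. The search started from copies that already matched at 80% identity or more and lay in listed loci. This contrast is therefore partly set by the search, and nothing is read from it. Of 3 partial matches 1 was listed, also with a gain, and the 2 unlisted ones included a stretch of 164 bp on chr1:11592621-11592784 with an identity of 94.4%, above that of any listed copy. The 8 listed copies were 78.9% to 91.1% identical in pairs (median 85.5%), and 110 of 243 alignment columns were the same in all of them.

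The levels at the loci of these copies started low. In CHH, Col-0 ranged from 0.00980 to 0.0272 (median 0.0142) and ndx1-4 from 0.0736 to 0.245 (median 0.140) over the 8 loci. In CHG, the 5 loci with a region ranged from 0.0129 to 0.0955 and from 0.307 to 0.536, and in CG, the 6 loci ranged from 0.0202 to 0.237 and from 0.248 to 0.765. The ranges of the genotypes did not overlap in any context, though in CG they nearly met (0.237 in Col-0 and 0.248 in ndx1-4). The loci had been listed for a difference between the genotypes, and 4 of them were selected for its direction. Nothing is therefore read from this separation. The strongest CG values were those of copy E on chromosome 4, in no gene, with 0.0346 and 0.765, and of copy G, 289 bp from AT5G20100, with 0.0300 and 0.715. Copy B, 260 bp from PKS1, a gene of phototropism, had the highest CHH level of ndx1-4, 0.245, in a locus without a CHG region.

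**Figure D5:**
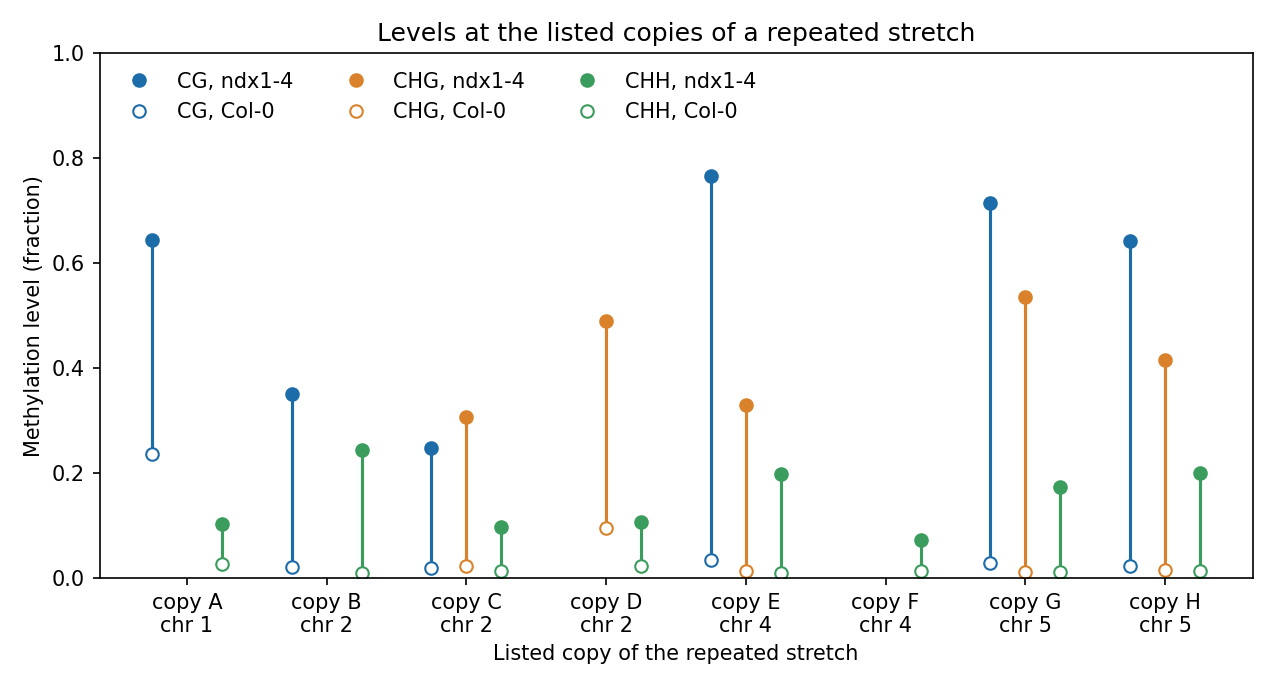
Methylation level (fraction, vertical axis) in Col-0 (open) and ndx1-4 (filled) at the 8 listed copies of the repeated stretch, ordered along chromosomes 1 to 5 and coloured by context, where a missing pair means that no region of that context was listed. Copies C, E, G and H belong to the loci with all contexts, and in CHH the Col-0 points lie at 0.00980 to 0.0272 and the ndx1-4 points at 0.0736 to 0.245.

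Copies linked 30 listed loci into 11 groups, which held 15 of the 108 loci. Each group was built from such a locus, and the 15 further loci in them were gaining as well, beside 45.3% of all nuclear loci. These 15 include the 12 distinct loci and the listed repeat copies outside the 108 that were counted above, so they are not a separate result. The locus on chr5:19001261-19001683 (CG 0.0447 and 0.574, CHG 0.107 and 0.532) and the one on chr1:20032532-20032850 in AT1G53655 (CG 0.0485 and 0.570, CHG 0.116 and 0.446) were 96.4% identical over 306 bp, and a further copy, in AT1G11785, gained in CHG and CHH. Neighbouring loci in AT2G23142 and AT2G23148, both genes of the self-incompatibility S1 family, were 80% identical over 406 bp and started from higher CG levels, 0.505 and 0.370. The copy of the MRD1 locus on chr5:726341-726538, 89.9% identical, gained in CHH, from 0.141 to 0.291, and the copy of the VIM3 upstream locus on chromosome 2, 97.7% identical, rose in CHH from 0.0623 to 0.147. In total, 12 of the 108 loci resembled another of them over at least 80 bp.

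The nearest other locus of the same kind was a median of 254219 bp away, at least 3055 bp, and within 10 kb for 8 loci. The nearest listed locus of any kind was a median of 6204.5 bp away and within 1 kb at 20 loci (18.5%). Such a neighbour was present at 14.2% of the loci gaining in CG and CHH only, 36.5% of the losing loci and 20.2% of all loci. Gaining neighbours within 1 kb were found at 13 loci (12.04%) and losing ones at 9 (8.33%), while over all loci these shares were 7.59% and 13.7%. They were 9.88% and 4.94% for the loci gaining in CG and CHH only. Among the losing loci, each share was 19.0%.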

How the data were processed

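Bisulfite libraries from seedlings aged 14 days, 2 per genotype, were grouped by their titles. The submitters' processing notes name Bismark and the TAIR10 build, and the region caller and its thresholds are not given in the sources used here. The authors deposited 1 table of regions and 3 lists by context, which held the same regions. For each region the deposited table gives the methylation level of each genotype as a fraction, pooled over both libraries, and the count of cytosines. The authors also deposited a difference and an area statistic as scores of their own comparison. The area statistic was used to rank or filter loci and is not printed, and differences were recomputed from the levels. Reads and coverage were not analysed here.

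Coordinates, 1-based with both ends included, were checked against RefSeq TAIR10.1, where both ends of all 338 member regions fell on a cytosine of their context. Regions were chained with pandas 2.3.3 (Python 3.11.15), and the chaining was tested on simulated data. Pericentromeric DNA was defined by smoothed exon coverage under 50% of the chromosome median (100 kb bins, 1 Mb windows). Copies were searched with blastn 2.17.0 (e-value up to 1e-10) and aligned with MAFFT 7.526. Intervals are order-statistic intervals of medians and Wilson intervals of shares (95%).

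Loci named in the text were the first 10 by summed area statistic, the 4 with the largest difference in each context, the 3 highest and 3 lowest in Col-0 CG level, up to 15 in genes with a symbol, and those near listed genes. The members, the gene lists and the naming rule were chosen with earlier results of these data known. The repeat groups, the distances to gene starts and the genes named with them were added after the data were seen.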

Additional observations from a re-analysis of the deposited data

How the results depend on the processing

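No paired analysis was possible because the deposited table holds 1 mean per genotype, and for the same reason no library could be left out. Of 182 alternative values, 162 stayed within the 95% interval of the main value or, for the number of loci, close to it, and 20 moved. With the upper 50% of regions by area statistic, 60 loci were found, the median differences were 0.553 in CG and 0.364 in CHG, and the median length was 415 bp. With larger differences only (CG 0.2, CHG 0.15, CHH 0.1 or more), 53 loci were found, with median ndx1-4 levels of 0.457 in CHG and 0.165 in CHH and median differences of 0.393 and 0.128. Means weighted by region length gave Col-0 levels of 0.143 in CG, 0.0590 in CHG and 0.0288 in CHH and differences of 0.566, 0.356 and 0.109. The pericentromeric share was 4.63% when exon coverage had to be under 25% of the median. The share in protein-coding genes was 17.6% when at least 50% of the locus had to lie in the gene and 61.1% with 1 kb upstream included, and under the same definitions the pseudogene share was 5.56% and 13.9%, both within the interval of its main value. A Col-0 CG level under 0.1 was found at 51.9% of loci, and a copy of 90% identity over 80% of the locus at 5.56%. The weighted means were set against medians, so both the statistic and the weighting changed, and the part of each was not tested. The other moves follow from stricter or wider definitions. Chaining at 25 bp of overlap or over gaps of up to 100 bp gave 105 loci each. The depth behind each level is unknown, and places outside the listed regions were not analysed here.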
